A study of Sus scrofa with 6 samples.

Results

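Cell cycle and proliferation genes encode the machinery by which a cell copies its genome and divides. Cyclins switch on cyclin-dependent kinases (CDKs) in a fixed order. D and E cyclins act in G1, the licensing factors and the MCM helicase open replication origins, and CDK1 with A and B cyclins drives the cell into mitosis, where the spindle, its checkpoint and the anaphase-promoting complex separate the chromosomes. The transcripts of the mitotic genes accumulate in G2 and M phase, so that in a resting organ such as the adult lung, where few cells divide, they come from a small share of the cells. In whole lung tissue, fewer dividing cells and less of a transcript per dividing cell cannot be told apart.

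The members were taken from a list of 60 genes of this machinery. They were matched to the arrays by the gene symbol, or else by a gene or transcript identifier in the annotation of a probe set. Gene names written out in the descriptions were not searched. Each gene was represented by its main-category probe set with the highest mean signal. In this way 39 of the 60 were found among the 11768 genes measured, 35 by a symbol in the files and 4 (TOP2A, E2F1, CDK2 and MAD2L1) through reference gene tables. The other 21 were not tied to a probe set in this way and were not analysed here. They are CCND1, CDKN1B, CDC25A, CCNB1, AURKB, PLK1, BUB1, CENPE, NUSAP1, PRC1, TPX2, PCNA, RRM1, RRM2, TYMS, GINS1, MCM2, MCM3, MCM5, MCM6 and MCM7. Several markers most often used to score proliferation, including PCNA, MCM2 and CCNB1, are thus missing from the description below.

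Lungs of adult male German landrace pigs were sampled 24 h after extended partial hepatectomy (ePHx), a resection of most of the liver. The MSC-treated pigs (3 lung samples) had received mesenchymal stromal cells (MSC) from pig bone marrow that had been differentiated towards hepatocytes, by central venous infusion. The control pigs (3 lung samples) had undergone the same ePHx and received Ringer solution, so both groups share the operation, and no lung of an unresected animal was analysed here. By the methods of the study, the 3 lungs of a group came from 3 different pigs. Each lung was measured on 1 Affymetrix porcine gene array, and the values are log2 signals after RMA (robust multi-array average), on which a difference of 1 is a doubling. The text that accompanies the deposit speaks of liver, but the samples are labelled as lung, and the surfactant genes SFTPC (12.27 to 12.54) and SFTPB (11.31 to 12.38) were at the top of the scale on all 6 arrays.

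Correlations between arrays across the main-category probe sets lay between 0.963 and 0.989. The methods of the study name a batch correction, which is not part of these values, and the labels do not say which lung belonged to which batch. No fit with a batch is therefore given here, and the side of the thresholds on which any single gene lies may depend on one. All 39 members lay above the mean of the antigenomic control probes (3.88 to 4.24 over the arrays) on every array. The highest of these probes reached 7.53 to 8.13, above the signals of many members, so lying above the mean does not show detection. BUB1B in MSC-treated replicate 3 (4.15) lay just above the mean of that array (4.14).

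The first question is whether any of these genes differed between MSC-treated and control lungs. None passed the thresholds of the study, which are an unadjusted p under 0.05 in limma together with a log2 fold change of 0.5 or more in size. The count was 0 of 39 members, set against 1.86% of all genes (219 of 11768), of which 0.654% rose and 1.21% fell. The smallest unadjusted p over the members was 0.08 (limma), and none of the 39 had a p under 0.05, against 2.74% of all genes. After Benjamini-Hochberg adjustment in limma no gene of the array passed 0.05 (0.0% of 11768), and 322 had an unadjusted p under 0.05. The 95% interval of the log2 fold change included 0 for all 39 members. For 29 members it lay within 1 log2 unit of 0, so a doubling or halving lies outside it, while for 9 it reached below -1 and for 1 (CHEK1) above 1.

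The signs were uneven all the same. The log2 fold change was negative for 29 of 39 members (74.4%), against 50.5% of all genes, and its median was -0.18 over the members, against -0.00 over all genes. Members of 1 pathway share the same 3 samples a group and vary together, so their number does not count as that many observations. The median rested on a few arrays. It was -0.29 without control replicate 3, -0.04 without control replicate 2 and 0.04 without MSC-treated replicate 3, in which case 17 members were negative. Leaving out at least 1 of the 6 arrays turned the sign of 26 members.

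**Figure D1:**
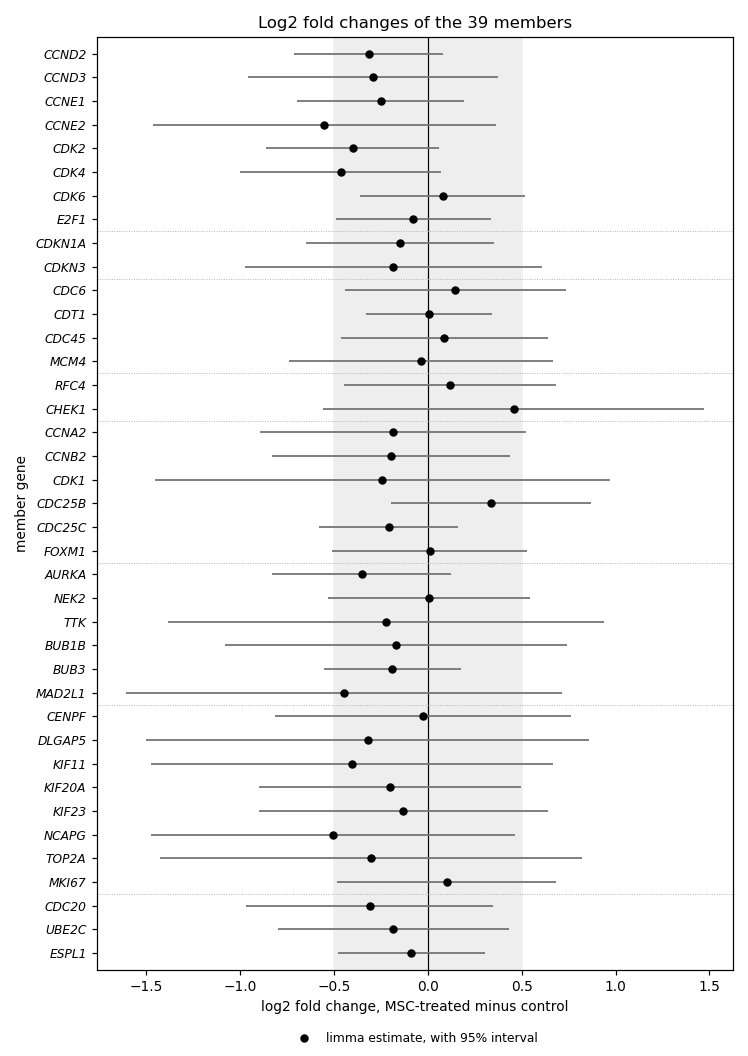
Log2 fold change (horizontal axis, MSC-treated minus control) of each of the 39 members (rows, in the order of the role groups of the text, dotted lines between groups), from limma (circles, bars are 95% intervals). Most circles lie left of 0, every interval crosses 0, and the grey band marks changes smaller than 0.5.

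Among the role groups of the members, the genes of the G1 phase came closest to a separation between the groups. Of 8 measured members of this group (10 listed), 7 had a negative log2 fold change, with a median of -0.30. Taken as the median deviation from each gene's own mean, the group stood at -0.09, 0.04 and -0.12 on the MSC-treated arrays and at 0.13, 0.17 and 0.16 on the control arrays, so that all 3 MSC-treated lungs lay below all 3 control lungs. The median log2 fold change of the group lay between -0.41 and -0.21 with any 1 array left out, lowest without MSC-treated replicate 2 and highest without MSC-treated replicate 3. Such a separation was not particular to the G1 genes. The 12 further inhibitors, p53 targets and anti-proliferative genes described below stood at -0.19, 0.12 and -0.17 on the MSC-treated arrays. On the control arrays they stood at 0.14, 0.13 and 0.13. The erythroid markers separated in the same direction, at -0.42, -0.21 and -0.35 against 1.48, -0.18 and -0.14.

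Only 2 of the 39 members, both G1 genes, had groups that did not overlap, with all MSC-treated lungs below all control lungs. Among all genes that holds for 3.82% (450 of 11768), and 7.43% did not overlap in either direction. A count of 2 of 39 is near these shares, so it does not set the members apart from other genes. CCND2, the D-type cyclin that activates CDK4 and CDK6 in response to growth factors, had log2 signals of 10.14, 10.45 and 10.57 in MSC-treated lungs, against 10.70, 10.61 and 10.78 in control lungs. The highest MSC-treated lung was just below the lowest control lung. Its log2 fold change was -0.32 (SE 0.17), or -0.19 without MSC-treated replicate 1, and an exact two-sided permutation test gave p = 0.1, the smallest that 3 arrays against 3 allow. CDK4, the kinase that begins the phosphorylation of the retinoblastoma protein, had 9.10, 9.19 and 8.62 in MSC-treated lungs, against 9.30, 9.80 and 9.20 in control lungs. MSC-treated replicate 2 and control replicate 3 differed by less than either group's spread. The log2 fold change of CDK4 was -0.46 (SE 0.23, exact permutation p = 0.1), and -0.28 without control replicate 2, its highest array. For both genes the range within a group was larger than the difference between the groups, as it was for all 39 members.

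The other G1 genes overlapped between the groups. CDK2, the partner of the E cyclins, had 7.36, 7.80 and 7.55 in MSC-treated lungs, against 8.24, 7.72 and 7.95 in control lungs. Only MSC-treated replicate 2 reached above the lowest control, and the log2 fold change of -0.40 (SE 0.20, exact permutation p = 0.2) had a limma p of 0.08, as did that of CDK4. CCNE2, an E-type cyclin that starts S phase, had the largest absolute log2 fold change of all members (-0.55, SE 0.39, exact permutation p = 0.4). Its signals were 6.29, 6.73 and 5.07 in MSC-treated lungs, against 6.46, 6.83 and 6.45 in control lungs. One array, MSC-treated replicate 3, made most of this difference, and without it the value was -0.07. The E cyclin CCNE1 (-0.25) and the D cyclin CCND3 (-0.29) were on the same side. CDK6 (0.08) and E2F1 (-0.08), the transcription factor that the retinoblastoma protein holds back, were close to 0.

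**Figure D2:**
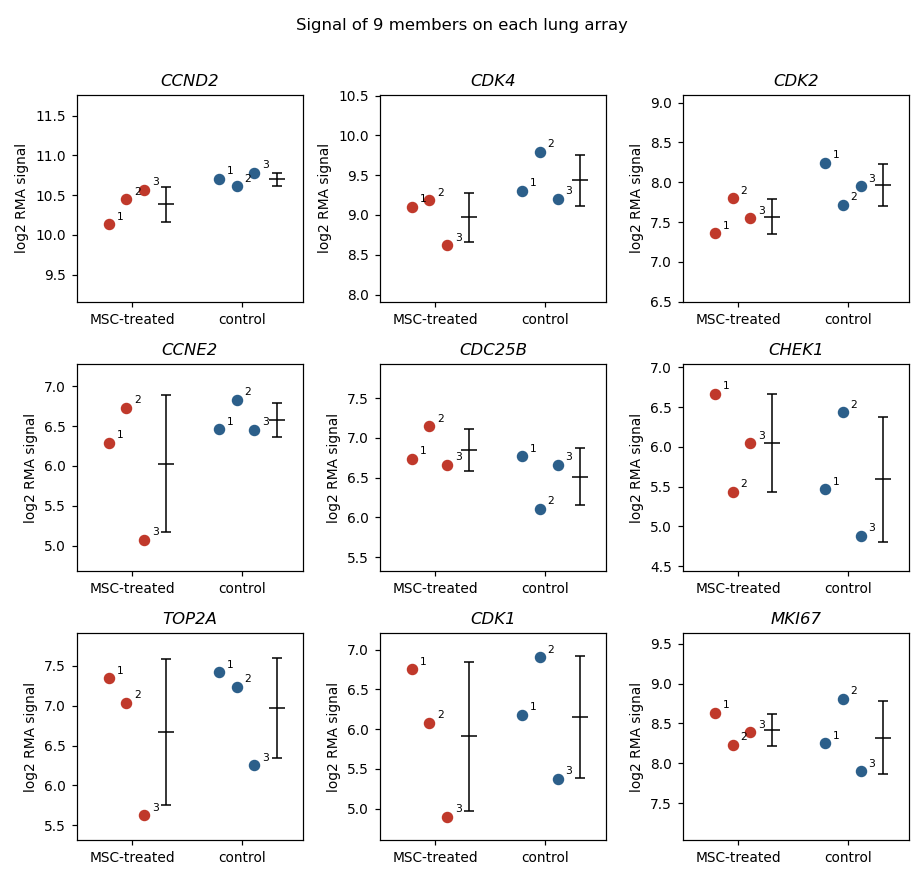
Log2 RMA signal (vertical axes, each spanning the same width) of 9 members on each lung array, MSC-treated left and control right. Points are arrays with their replicate number, and the bar beside each group is its mean with SD (n = 3). CCND2 and CDK4 have groups that do not overlap, and MSC-treated replicate 3 and control replicate 3 are the low arrays of TOP2A and CDK1.

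Both inhibitors with a probe set were close to their controls. CDKN1A, the p53 target p21 that arrests cells in G1, had 6.31, 6.87 and 6.84 in MSC-treated lungs, against 6.89, 7.03 and 6.55 in control lungs. The groups overlapped and differed by -0.15 on the log2 scale (SE 0.22, exact permutation p = 0.5). CDKN3, a phosphatase that acts on CDK2 and whose transcript is itself highest in dividing cells, had 7.17, 6.43 and 6.06 in MSC-treated lungs, against 6.75, 7.22 and 6.25 in control lungs. Here too the groups overlapped, and its log2 fold change was -0.18 (SE 0.34).

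The genes of origin licensing were near 0. For CDC6, CDT1, CDC45 and MCM4, the only MCM subunit measured, the median log2 fold change was 0.05, and it lay between -0.05 and 0.26 with any 1 array left out. CDC6, which loads the helicase on origins, had 5.75, 4.93 and 5.27 in MSC-treated lungs, against 5.20, 5.45 and 4.87 in control lungs, a log2 fold change of 0.15 (SE 0.25). The highest lung was MSC-treated replicate 1 and the lowest control replicate 3, with the others overlapping between them. CDC45 (0.09), which joins the helicase when origins fire, CDT1 (0.01), the other loading factor, and MCM4 (-0.04) were closer to 0.

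CHEK1, the kinase that halts the cycle when replication forks stall, had the largest positive log2 fold change of the members (0.46, SE 0.44, exact permutation p = 0.5). Its signals were 6.67, 5.44 and 6.05 in MSC-treated lungs, against 5.47, 6.43 and 4.88 in control lungs. The groups overlapped over most of their range, and the value lay between 0.10 and 0.88 with 1 array left out, lowest without control replicate 3 and highest without control replicate 2. RFC4, a subunit of the clamp loader, had a log2 fold change of 0.12.

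CDC25B, a phosphatase that removes the inhibitory phosphates from CDK1 at the entry into mitosis, was the mitotic member with the largest positive value. It had 6.74, 7.15 and 6.66 in MSC-treated lungs, against 6.77, 6.11 and 6.66 in control lungs. Control replicate 2, the highest array for many members, was the lowest one here, and MSC-treated replicate 2 was the highest. The log2 fold change was 0.34 (SE 0.23, exact permutation p = 0.4), and without control replicate 2 it was 0.13. As for every member, its side of the thresholds may depend on the batch, for which no fit is given. The other 5 members of its group, CCNA2, CCNB2, CDK1, CDC25C and FOXM1, the transcription factor of the G2 and M genes, had values between -0.24 and 0.01.

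The 23 members that act in mitosis differed more between the samples of a group than between the groups. Their median deviation from each gene's mean was 0.27, 0.07 and -0.67 on the MSC-treated arrays, against 0.28, 0.33 and -0.37 on the control arrays. Replicate 3 was thus the low array of either group. MSC-treated replicate 3 had the lowest signal of the 6 arrays in 18 of these 23 members (78.3%), and in 22 of all 39 (56.4%), against 18.3% of all genes, and it was the highest array for none of the 39. Control replicate 2 was the highest array for 20 members (51.3%), against 19.2% of all genes. The SD within a group, taken as the median over the 23 genes, was 0.51 in MSC-treated and 0.44 in control lungs, against 0.25 and 0.22 over all genes. The median log2 fold change of the 23 was -0.19, and it lay between -0.41 without control replicate 3 and 0.11 without MSC-treated replicate 3. The labels do not say whether equal replicate numbers in the groups mark paired samples.

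**Figure D3:**
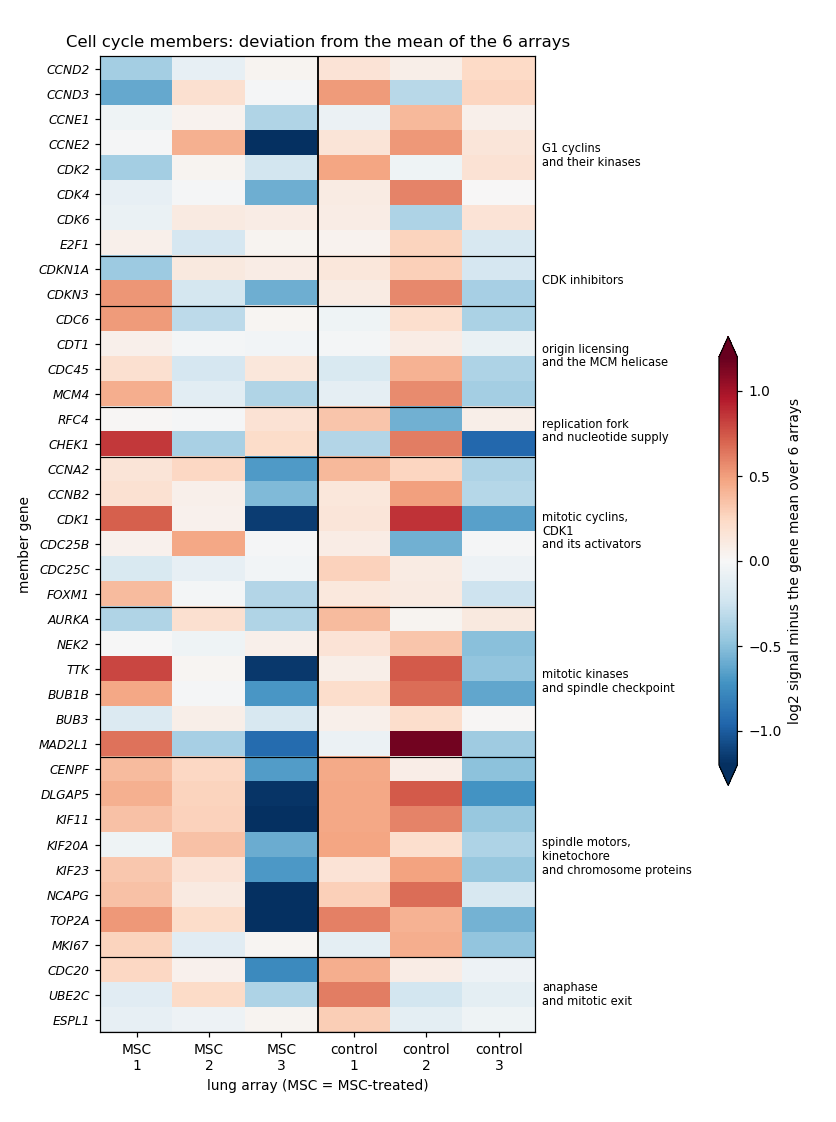
Log2 signal of each of the 39 members minus its mean over the 6 arrays (colour, red above and blue below the mean, pointed ends for values past 1.2), with MSC-treated arrays left of the line and control arrays right of it. The mitotic genes in the lower part are darkest blue in MSC-treated replicate 3, next in control replicate 3. They are mostly red in MSC-treated replicate 1, control replicate 1 and control replicate 2.

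The spindle motors and chromosome proteins showed this spread at its widest. Their median deviation was 0.35, 0.24 and -0.93 in MSC-treated lungs, against 0.46, 0.46 and -0.46 in control lungs. TOP2A, the topoisomerase that untangles sister chromatids, had 7.34, 7.04 and 5.62 in MSC-treated lungs, against 7.42, 7.24 and 6.25 in control lungs. MSC-treated replicates 1 and 2 lay among the controls and replicate 3 lay below all of them, and the log2 fold change was -0.30 (SE 0.48, exact permutation p = 0.6) with all arrays and 0.22 without that lung. NCAPG, a subunit of the condensin that compacts mitotic chromosomes, had 6.51, 6.27 and 4.95 in MSC-treated lungs, against 6.45, 6.84 and 5.97 in control lungs. Its log2 fold change of -0.51 (SE 0.42, exact permutation p = 0.5) was -0.03 without MSC-treated replicate 3. The motor KIF11 (-0.40) and the spindle protein DLGAP5 (-0.32) followed the same pattern, with values of 0.11 and 0.19 without that array. The motors KIF20A (-0.20) and KIF23 (-0.13) and the kinetochore protein CENPF (-0.03) had smaller values but were also lowest in that array. Without it their values were 0.05, 0.18 and 0.30.

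MKI67, which coats mitotic chromosomes and is the antigen of the Ki-67 proliferation stain, did not follow the spindle genes in MSC-treated replicate 3. It had 8.64, 8.23 and 8.39 in MSC-treated lungs, against 8.25, 8.81 and 7.90 in control lungs. The groups overlapped, MSC-treated replicate 3 was not low, and the log2 fold change was 0.10 (SE 0.25, exact permutation p = 0.9). Control replicate 3 was its lowest array, and that lung was the low control of the spindle genes too.

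CDK1, the kinase of mitotic entry, had 6.75, 6.08 and 4.89 in MSC-treated lungs, against 6.18, 6.90 and 5.38 in control lungs. Replicate 3 was again the low lung of either group, and the groups differed by -0.24 on the log2 scale (SE 0.52, exact permutation p = 0.7). CDK1 is the 1 member with a second probe set, which put the value at -0.67 with the same low arrays, at 3.97 in MSC-treated replicate 3 and 5.16 in control replicate 3. The probe set in use here is annotated with cross-hybridisation type 3, which allows for signal from other transcripts, and the second with type 1. In MSC-treated replicate 3 the second probe set lay below the mean of the antigenomic probes (4.14), so its value is not well measured there.

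Among the kinases and the spindle checkpoint, 5 of 6 members were negative, with a median of -0.21. MAD2L1, which delays anaphase until all chromosomes are attached, had 7.67, 6.62 and 6.10 in MSC-treated lungs, against 6.95, 8.18 and 6.60 in control lungs. The highest lung was control replicate 2, and without it the log2 fold change of -0.45 (SE 0.50, exact permutation p = 0.6) was 0.02. The checkpoint kinase TTK (-0.22) and the checkpoint protein BUB1B (-0.17) were lowest in MSC-treated replicate 3, as were 5 of the 6 members in all. AURKA (-0.35), the kinase of the spindle poles, and the checkpoint protein BUB3 (-0.19) were negative with any 1 array left out, and NEK2, a kinase of centrosome separation, was at 0.01.

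The 3 members of mitotic exit were all negative. CDC20, which activates the anaphase-promoting complex, had 6.35, 6.15 and 5.33 in MSC-treated lungs, against 6.53, 6.18 and 6.04 in control lungs. MSC-treated replicate 3 alone stood apart, and the log2 fold change was -0.31 (SE 0.28, exact permutation p = 0.5) with it and -0.01 without it. The ubiquitin-conjugating enzyme UBE2C (-0.18) and the separase ESPL1 (-0.09) had smaller values.

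The median over the members was thus set by few lungs. It lay between -0.29 and 0.04 with any 1 array left out, and it was -0.06 when limma weighted the arrays by their own spread, a setting in which control replicate 2 (0.50) and MSC-treated replicate 3 (0.69) received the lowest weights. A second quantile normalisation (-0.18), median centring (-0.18) and a minimum mean signal of 5 (-0.19, 37 members) left it near its value.

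**Figure D4:**
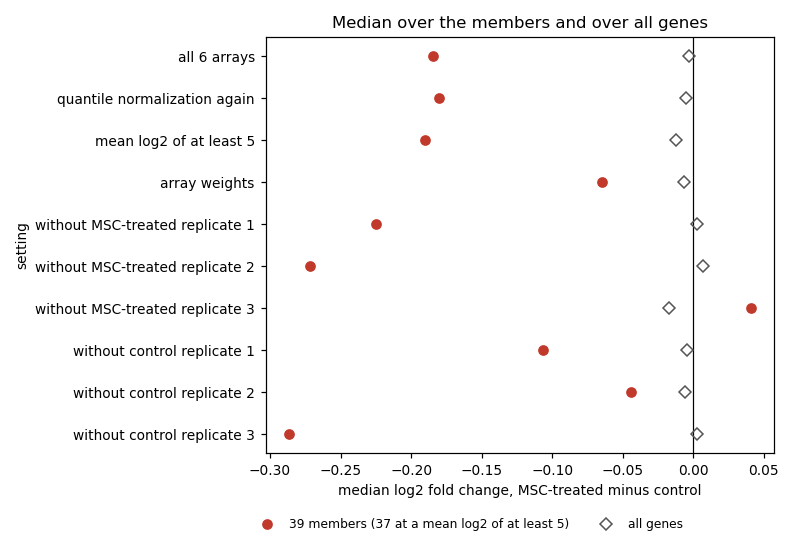
Median log2 fold change (horizontal axis, MSC-treated minus control) over the members (filled circles) and over all genes (open diamonds) under each setting (rows). The members' median runs between -0.29 without control replicate 3 and 0.04 without MSC-treated replicate 3, while the median of all genes stays near 0 throughout.

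The remaining genes of the pathway gave the same count of calls. Of 136 further cell cycle genes listed, 84 were measured and 0 passed the thresholds, none with an unadjusted p under 0.05 in limma, against the 1.86% and 2.74% of all genes given above. Their median log2 fold change was -0.03, with 43 of 84 negative. It was 0.03 for 27 S phase genes, -0.05 for 34 mitotic genes, -0.03 for 11 regulators of the RB, E2F and DREAM complexes and -0.16 for 12 inhibitors, p53 targets and anti-proliferative genes. MSC-treated replicate 3 was the lowest array for 20 of the 34 mitotic genes (58.8%), whose median deviations were 0.36, 0.05 and -0.56 in MSC-treated lungs, against 0.17, 0.22 and -0.33 in control lungs.

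In these lists the smallest p-values belonged to CDKN2D, the CDK4 and CDK6 inhibitor p19, and to CDCA3, a trigger of mitotic entry. CDKN2D had 4.97, 5.14 and 4.77 in MSC-treated lungs, against 5.57, 5.22 and 5.26 in control lungs, which do not overlap (log2 fold change -0.39, SE 0.18, exact permutation p = 0.1). CDCA3 had 5.03, 5.29 and 4.94 in MSC-treated lungs, against 5.66, 5.41 and 5.28 in control lungs, where MSC-treated replicate 2 just exceeded the lowest control (-0.36, exact permutation p = 0.2). The p53 target CCNG1 had the largest absolute log2 fold change (-0.71, SE 0.37). Its signals were 9.55, 10.10 and 8.51 in MSC-treated lungs, against 10.26, 9.93 and 10.10 in control lungs, with the lowest again in MSC-treated replicate 3, and its value was -0.27 without that lung and -1.07 without MSC-treated replicate 2. CDKN2C, the inhibitor p18, had a log2 fold change of -0.44, and GADD45G, a stress-induced growth arrest gene, one of 0.35.

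Markers of some other cell types varied between these lungs, and their part in the values above was not tested. Of 12 lists of such markers, those with genes past the thresholds are given here. The platelet list was among them (1 of 4 measured fell, median 0.06). The B and plasma cell, macrophage and monocyte, alveolar type 1 and type 2, ciliated, endothelial, and fibroblast and muscle lists had 0 genes past the thresholds. All 5 measured neutrophil markers had negative log2 fold changes (2 fell past the thresholds, median -0.99), and their summed linear signal was 1500 to 2560 in MSC-treated lungs, against 2470 to 7590 in control lungs. Control replicate 1 was the highest array for all 5, and without it the median was -0.29. All 6 erythroid markers were negative too (2 fell, median -0.83), with a summed signal of 229 to 397 in MSC-treated lungs, against 425 to 1200 in control lungs. Control replicate 1 was again the highest for all 6, and without it the median was -0.22. Of the 12 T and NK cell markers 2 rose (median 0.20), with a summed signal of 946 to 2130 in MSC-treated lungs, against 842 to 1240 in control lungs. MSC-treated replicate 2 was the highest array for all 12, and without it the median was 0.00. The 4 airway secretory and basal markers (1 fell) had median deviations of -0.89, 0.55 and -1.40 in MSC-treated lungs, against 0.35, 0.14 and 0.78 in control lungs. They were lowest in MSC-treated replicate 3, as the mitotic members were, but highest in control replicate 3, where the mitotic members were low.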

How the data were processed

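RNA of 6 pig lung samples was hybridised to 1 Affymetrix Porcine Gene 1.0 ST array each. The authors deposited log2 signals made by RMA (per the submitters' processing notes, Affymetrix Expression Console 1.4). The batch correction named in the methods of the study is not part of these values. Groups were taken from the sample labels and the time of sampling from the methods. Of 27558 probe sets, 19124 were of the main category, 12911 of these were tied to 1 gene, 212 carried several symbols and 6001 none. For the 1040 genes with several probe sets the one with the highest mean was used, leaving 11768. The members and gene lists were chosen with earlier results of these data known.

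MSC-treated and control lungs (n = 3 each) were compared with limma 3.58.1 in R 4.3.3 over all genes, without a covariate, with Benjamini-Hochberg adjustment. How the arrays were batched is not given in the sources used here. A second table of the series has 6 array columns whose names carry no sample label. They were not used, only the probe set annotation of that table was, with the number of probes per probe set that the authors deposited there. Values on each array are given for members with an unadjusted p under 0.05 in limma (none), for the member of each role group with the largest absolute log2 fold change, and for MKI67, TOP2A, CDK1 and CDKN1A. CCND2, CDK4 and CDK2 were added after their values were seen. Up to 4 further genes of each list with the smallest p were eligible to be named. On simulated data (10 sets, 200 changed genes), 90.8% of changes of 1 log2 unit were recovered without a covariate, and on average 351 of the unchanged genes were called at the same unadjusted thresholds. That is more than the 219 genes called in the real data, but the counts are not like for like. The simulated noise lacked the variation that real arrays share across genes, and its size was each gene's SD estimated from these arrays. The changed genes were drawn from all genes, with noise independent between genes. The members vary together and more widely, with a median SD of 0.38 in MSC-treated and 0.42 in control lungs, against 0.25 and 0.22 over all genes. The recovered share therefore does not hold for the members, whose own share was not simulated. The alternatives were other scalings and filters, moderated tests with trend or robust settings, array weights, the methods' t-test, the replicate number as a block, and each array left out. The number of arrays limits the precision.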

Additional observations from a re-analysis of the deposited data

How the results depend on the processing

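The members past the thresholds were 0 in all settings but these. With each array left out in turn, 0 to 1 rose (CHEK1, 0.88 without control replicate 2) and 0 to 2 fell (CCNE2, -0.90, and AURKA, -0.54, without MSC-treated replicate 2, and CDK2, -0.53, without control replicate 2). The other cell cycle genes gave 0 to 2, the 2 without MSC-treated replicate 2. Over all genes the 219 became 20 in limma at a fold change above 2, 2 by the methods' t-test at that same fold change, and 182 to 608 with 1 array left out, highest without MSC-treated replicate 2 (469 without control replicate 2). Averaging the probe sets of a gene gave 1 gene at an adjusted p under 0.05 in limma. The median of the G1 group was -0.41 to -0.21 with 1 array left out, that of the mitotic cyclins -0.35 to 0.15, the highest without MSC-treated replicate 3. The cause of these shifts was not tested.

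The labels do not say whether the replicate numbers pair the samples. Correlations of same-numbered deviations were -0.41, -0.49 and 0.06. Those of differently numbered samples ran from -0.44 (MSC-treated replicate 1 with control replicate 3) to 0.61 (MSC-treated replicate 1 with control replicate 2). These correlations cannot settle it, because the deviations within so small a group are tied to each other. With the number as a block, 166 genes and 0 members passed, with a members' median of -0.18. Of the single members' values, 618 stayed on their side of the threshold and 4 passed it. The planned fits with a processing mark (letters b-T in 3 of the 6 array names of the second table) and on that table itself are not given, because those names tie no array to a sample.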
